A study of Mus musculus with 8 samples.

Results

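Ribosome biogenesis genes encode the machinery that builds ribosomes in the nucleolus. RNA polymerase I transcribes the ribosomal RNA precursor there, small nucleolar ribonucleoproteins guide its chemical modification, and ordered sets of assembly factors cut and fold it with ribosomal proteins into a small and a large subunit. Many of these genes are known targets of the transcription factor Myc, and haematopoietic stem cells are known for a low and tightly held rate of protein synthesis. The set comprised 37 genes chosen by function: nucleolar, RNA polymerase I and ribosome assembly genes, together with 3 enzymes of polyamine and pyrimidine synthesis that accompany growth. Each was read by its brightest singly named probe set, and 36 of the 37 were measured among 18193 genes in all. Npm3 was not analysed here.

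The samples were LSK cells of C57BL/6 mice, sorted by flow cytometry for low lineage markers, Sca1 and high cKit, a fraction that holds haematopoietic stem and early progenitor cells. There were 4 arrays from mice heterozygous for the mutant JAK2V617F and 4 arrays from wild type mice, each from 1 mouse. The mutant kinase signals without its usual cytokine trigger and is known from myeloproliferative neoplasms. The sources used here give neither age nor sex, nor how the mutant allele is driven. Values are log2 intensities, so a difference of 1 is a doubling of signal, and every change is Jak2V617F minus wild type. Arrays limit the precision by their number, and levels of different probe sets are not compared with each other. In sorted cells measured in bulk, less RNA per cell and fewer cells of a type cannot be told apart.

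Array medians lay between 7.06 and 7.15, and pairwise correlations over probe sets lay between 0.991 and 0.995. The excess of 3' over 5' control signal for Gapdh was 0.56 to 0.77 in Jak2V617F arrays and 0.68 to 0.73 in wild type arrays. Of 10 listed LSK markers 8 were measured, with group means from 9.79 (Slamf1) to 13.93 (Cd34) in Jak2V617F arrays and from 9.07 (Slamf1) to 14.04 (Cd34) in wild type arrays. Sca1 itself (Ly6a) was not analysed here. Among the 8, 4 lay above 0 and 4 below, and 0 were called (limma). Arrays of the genotypes did not overlap for Cd48, with a change of 0.35, or for Mecom and Cd34, with changes of -0.34 and -0.12, and Slamf1 had a change of 0.72. Of 8 lymphocyte markers 7 were measured, with a median change of 0.00, 4 above 0 and 3 below. Ms4a1 averaged 4.09 in Jak2V617F and 4.26 in wild type arrays, Il7r 8.98 in Jak2V617F and 9.41 in wild type arrays, and Cd79b 11.76 in both. The change was 0.38 for Cd3g, 0.19 for Cd3e, 0.12 for Ebf1 and -0.02 for Cd79a. Female-specific Xist was high in Jak2V617F array 3 and in wild type arrays 1 and 2, and the other 5 arrays expressed Y-linked genes.

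Transcripts for ribosome building differed little between the genotypes. Of the 36 measured genes, 0 passed limma's test at an adjusted p of 0.05, where 0.165% of all genes were called, 0.104% higher and 0.0605% lower in Jak2V617F cells. The changes ran from -0.11 for Nolc1 to 0.23 for Nip7, which is 0.92-fold to 1.17-fold, around a median of 0.07, beside a median of 0.05 over all genes. Changes above 0 were found for 28 of the 36 genes, and for 62.6% of all genes. No 95% interval of a gene reached below 0.77-fold or above 1.39-fold, and both extremes belonged to Rrp12. Without adjustment, 2 genes had a limma p under 0.05, Nip7 and Pes1, both higher, beside 11.9% of all genes. At that p 0 were lower, beside 5.23% of all genes. The arrays of the genotypes did not overlap for 1 gene, Dkc1, which was higher in Jak2V617F cells, as were 6.82% of all genes, and 0 genes stood apart on the lower side, beside 3.33% of all genes.

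**Figure D1:**
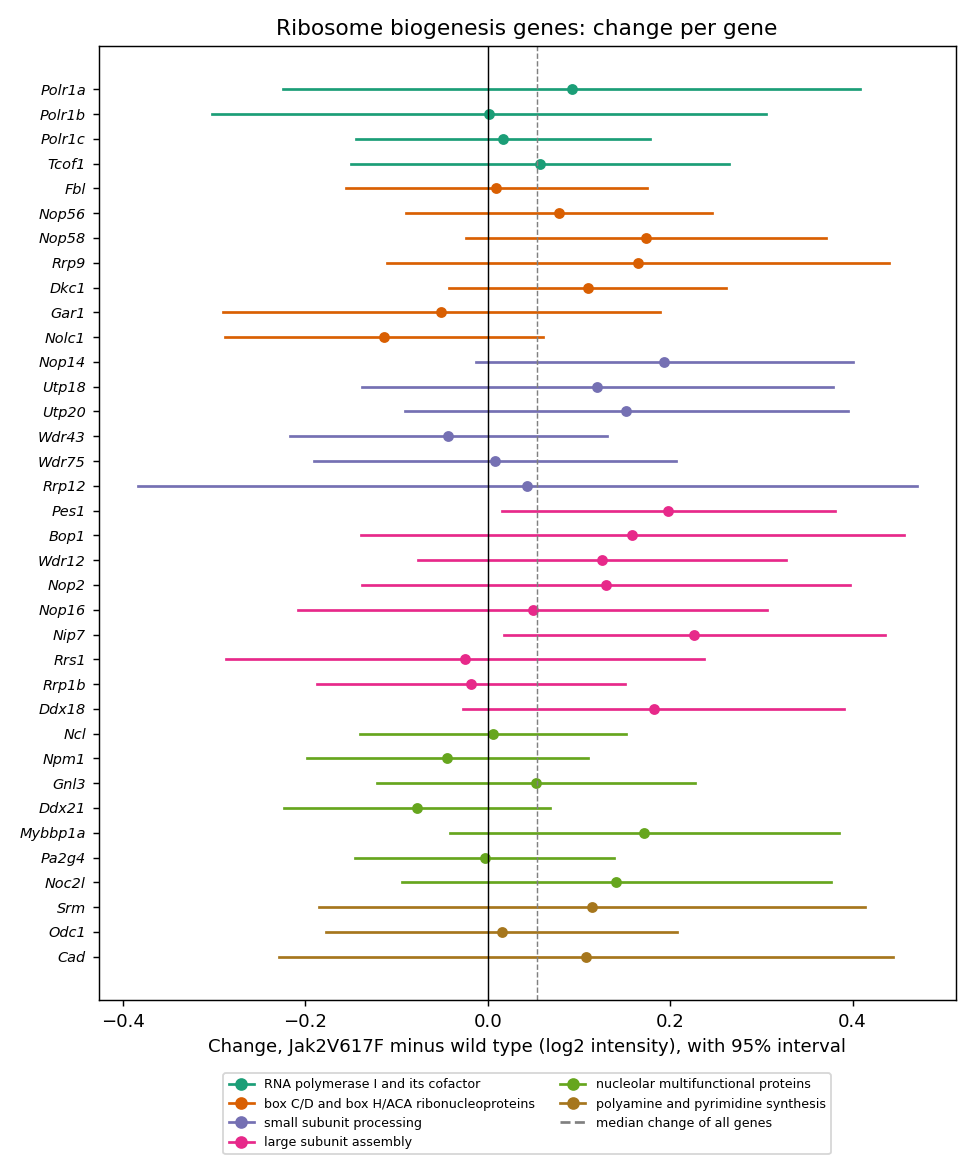
Change of each of 36 ribosome biogenesis genes, Jak2V617F minus wild type, on the log2 intensity scale (n = 4 arrays each). Points are limma estimates, lines are 95% intervals, colours are roles and the dashed line is the median change of all genes, 0.05. All intervals but those of Pes1 and Nip7 include 0, and none extends past 0.47.

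The 2 largest changes among the 36 genes, of Nip7 and Pes1, belonged to factors that assemble the large ribosomal subunit. Nop14, of small subunit processing, came next at 0.19. Large subunit genes outside the set had a median change of 0.08, beside 0.12 for small subunit genes outside it. The 9 measured genes had a median change of 0.13, with 7 above 0 and 2 below, and 0 called. Nip7, a factor needed for ribosomal RNA processing, read 13.11, 12.96, 12.80 and 13.17 in Jak2V617F arrays 1 to 4, against 12.83, 12.82, 12.81 and 12.69 in wild type arrays 1 to 4. Jak2V617F arrays 1, 2 and 4 lay above every wild type array, and Jak2V617F array 3 lay within their range. The change was 0.23 ± 0.092 (SE), or 1.17-fold with a 95% interval of 1.01 to 1.35 (limma adjusted p = 0.262). The further probe set of Nip7 differed by 0.07.

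Pes1, Bop1 and Wdr12 encode the PeBoW complex, which acts together in maturation of large subunit ribosomal RNA. Pes1 read 12.81, 12.72, 12.61 and 12.78 in Jak2V617F arrays, against 12.62, 12.63, 12.39 and 12.49 in wild type arrays. The groups met only at their edge, where Jak2V617F array 3 lay just under wild type arrays 1 and 2, and the change was 0.20 ± 0.081 (SE; limma adjusted p = 0.263). Bop1 read 11.97, 11.78, 11.39 and 11.92 in Jak2V617F arrays, against 11.72, 11.70, 11.44 and 11.57 in wild type arrays, and Jak2V617F array 3 was the lowest of all 8. Wdr12 read 13.36, 13.31, 13.15 and 13.30 in Jak2V617F arrays, against 13.17, 13.35, 13.09 and 13.02 in wild type arrays. The changes of Bop1 and Wdr12 were 0.16 ± 0.13 (SE) and 0.13 ± 0.089 (SE), and a further probe set of Wdr12 with a mean level of 11.41 went the other way, by -0.19. The further probe sets of Pes1 and Bop1, dimmer at mean levels of 7.63 and 5.82, differed by -0.16 and -0.27. With probe sets averaged, the changes were 0.017 for Pes1, -0.055 for Bop1 and -0.012 for Wdr12. None of the 3 genes passed the adjusted test (limma adjusted p = 0.541 for Bop1 and 0.477 for Wdr12), and the unadjusted 95% interval lay above 0 for Pes1 alone.

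Among the other large subunit factors, the helicase gene Ddx18 averaged 13.12 ± 0.15 in Jak2V617F arrays and 12.94 ± 0.10 in wild type arrays (SD, n = 4 each), a change of 0.18 with a limma adjusted p of 0.343. Nop2, a methyltransferase of large subunit ribosomal RNA, read 12.23, 12.13, 11.76 and 12.27 in Jak2V617F arrays, against 11.88, 12.12, 11.98 and 11.90 in wild type arrays. Its Jak2V617F values lay on both sides of the wild type range, and the change was 0.13 (limma adjusted p = 0.578). Nop16 differed by 0.05, Rrp1b by -0.02 and Rrs1, which helps to bring in the 5S ribonucleoprotein, by -0.03. Further probe sets with a mean level of at least 7.94 differed by 0.08 for Ddx18 and -0.17 for Nop16. Those of Rrp1b differed by 0.09 and 0.25, and that of Rrs1 by -0.12.

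Genes of small subunit processing included the one that varied most between mice, Rrp12. The 6 members, parts of the large nucleolar complex that cuts the precursor and of its later export, had a median change of 0.08, with 5 above 0 and 0 called. Nop14 read 12.41, 12.39, 12.16 and 12.46 in Jak2V617F arrays, against 12.14, 12.32, 12.04 and 12.14 in wild type arrays, a change of 0.19 ± 0.0915 (SE; limma adjusted p = 0.315). Rrp12, which serves in maturation and export of subunits, read 10.82, 10.41, 9.89 and 10.69 in Jak2V617F arrays, against 10.47, 10.61, 10.31 and 10.24 in wild type arrays. Its highest and its lowest value both came from Jak2V617F arrays, which enclosed all wild type values. Its SD was 0.41 over Jak2V617F arrays and 0.16 over wild type arrays, and its change was 0.04. Utp20 differed by 0.15 and Utp18 by 0.12, while Wdr75 differed by 0.01 and Wdr43 by -0.04. A further Wdr43 probe set with a mean level of 11.95 differed by 0.21.

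Genes of the particles that modify ribosomal RNA differed little. Of 7 members 5 lay above 0, the median was 0.08 and 0 were called. The box C/D particle, which methylates ribosomal RNA, holds the methyltransferase Fbl and the scaffold proteins Nop56 and Nop58. Fbl averaged 14.40 ± 0.09 in Jak2V617F arrays and 14.39 ± 0.07 in wild type arrays, and Nop56 averaged 14.07 ± 0.10 in Jak2V617F arrays and 13.99 ± 0.06 in wild type arrays (SD, n = 4 each). Nop58 read 13.06, 12.92, 12.79 and 13.04 in Jak2V617F arrays, against 12.70, 12.86, 12.88 and 12.67 in wild type arrays. Its values in Jak2V617F arrays 1, 2 and 4 topped all wild type values, and the change was 0.17 ± 0.087 (SE; limma adjusted p = 0.339). Rrp9, specific to the U3 particle, differed by 0.16.

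The box H/ACA particle turns uridine into pseudouridine, and Dkc1 is its enzyme. Dkc1 read 13.45, 13.32, 13.32 and 13.46 in Jak2V617F arrays, against 13.30, 13.28, 13.30 and 13.21 in wild type arrays. The groups stood apart by a narrow margin, with a change of 0.11 ± 0.067 (SE; limma adjusted p = 0.416). Its further probe sets differed by -0.16 and 0.03, so the groups did not stand apart in these probe sets. The particle's Gar1 differed by -0.05. Nolc1, a chaperone of both particles, had the lowest change of all members, -0.11, while its further probe sets differed by 0.23 and 0.13.

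RNA polymerase I genes and the cofactor gene had changes of at most 0.09 in their chosen probe sets. Polr1a, the largest subunit, read 11.20, 10.81, 10.55 and 11.02 in Jak2V617F arrays, against 10.86, 10.97, 10.66 and 10.71 in wild type arrays. Jak2V617F arrays again held both extremes, and the change was 0.09. Polr1b, a further catalytic subunit, averaged 10.12 in both genotypes, with an SD of 0.26 in Jak2V617F and 0.15 in wild type arrays (n = 4 each) and a change of 0.00. Polr1c, shared with RNA polymerase III, differed by 0.02 and Tcof1, a cofactor of ribosomal RNA gene transcription, by 0.06. Further probe sets with a mean level of at least 7.94 differed by -0.13 and -0.03 for Polr1a. That of Polr1c differed by 0.10, and those of Tcof1 by 0.16 and 0.14. The 4 genes had a median change of 0.04, and 0 were called.

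By role, transcripts of the nucleolar proteins were the most even across mice, with a median SD within genotypes of 0.067. Those of Mybbp1a and Noc2l were less even, at 0.132 and 0.152, beside a median of 0.125 over the 36 genes. Ncl, the histone chaperone and RNA-binding protein nucleolin, read 14.04, 13.98, 13.97 and 13.95 in Jak2V617F arrays, against 13.96, 14.06, 13.98 and 13.91 in wild type arrays, and its change was 0.01 with a 95% interval of 0.91-fold to 1.11-fold. Npm1, nucleophosmin, read 14.70, 14.68, 14.80 and 14.63 in Jak2V617F arrays, against 14.70, 14.79, 14.81 and 14.68 in wild type arrays, a change of -0.04. These values overlapped throughout. The growth-associated genes Pa2g4 and Gnl3 differed by -0.00 and 0.05. The helicase gene Ddx21 differed by -0.08, and a further Ddx21 probe set with a mean level of 11.67 by 0.31 (limma over all probe sets, adjusted p = 0.252). Mybbp1a, a nucleolar regulator of transcription, differed by 0.17, with overlapping groups, and by 0.24 in its further probe set. Noc2l differed by 0.14, and by -0.29 in its further probe set. The 7 measured genes had a median change of 0.01.

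Among the growth enzymes 0 of 3 were called, with a median change of 0.11. Odc1, the rate-limiting enzyme of polyamine synthesis, averaged 13.32 ± 0.13 in Jak2V617F arrays and 13.31 ± 0.08 in wild type arrays (SD, n = 4 each). Srm, which makes spermidine, read 13.49, 13.42, 13.08 and 13.57 in Jak2V617F arrays, against 13.38, 13.50, 13.11 and 13.10 in wild type arrays. Cad, which starts pyrimidine synthesis, read 12.35, 11.99, 11.85 and 12.22 in Jak2V617F arrays, against 12.01, 12.32, 11.70 and 11.95 in wild type arrays. Both overlapped widely, with a change of 0.11 for each. Myc transcript, whose product drives many of these genes, averaged 13.18 ± 0.09 in Jak2V617F arrays and 13.29 ± 0.20 in wild type arrays (SD, n = 4 each; change -0.11, limma adjusted p = 0.606).

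**Figure D2:**
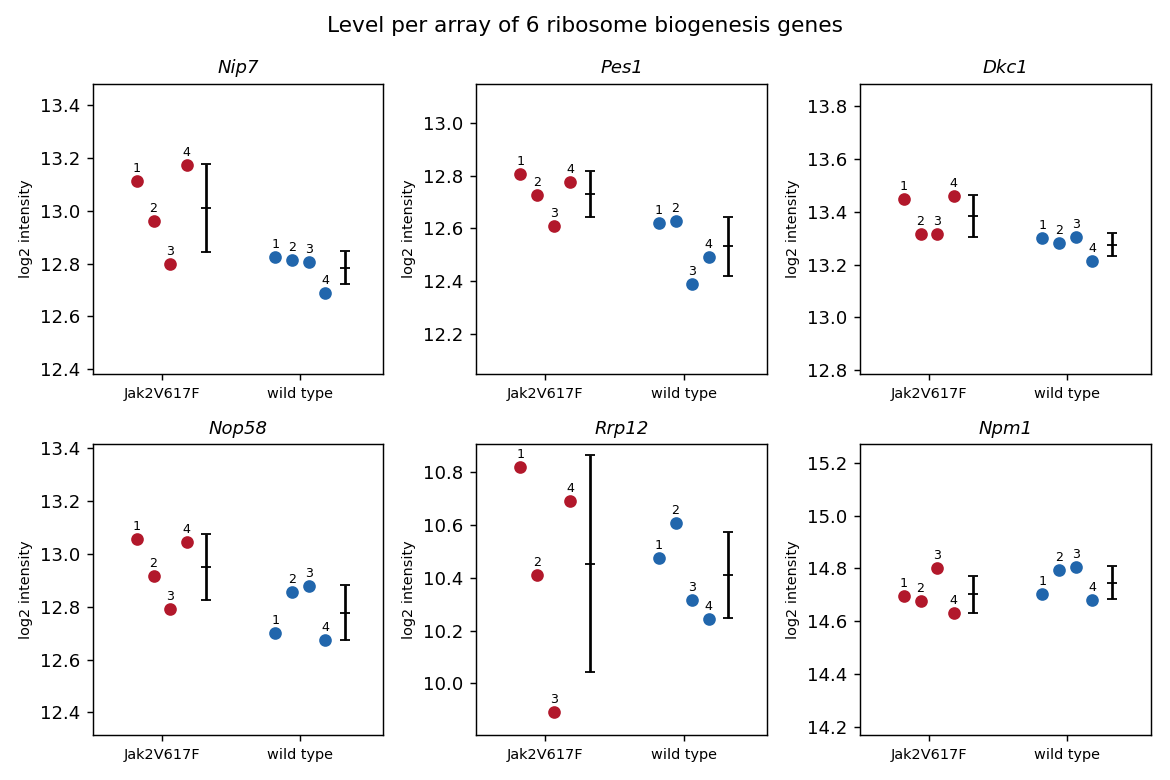
Log2 intensity of 6 genes in each array, with Jak2V617F arrays left of wild type arrays and each point numbered by its replicate. Black bars are the mean and SD (n = 4 each) and all panels span the same range of the log2 scale. Jak2V617F array 3 is the lowest of its group for Nip7, Pes1, Nop58 and Rrp12 and the highest for Npm1.

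The genes moved together among mice of the same genotype. Jak2V617F array 3 lay below the mean of its group for 35 of 36 genes, beside 46.9% of all genes, and was the lowest Jak2V617F array for 33 of them, beside 25.1% of all genes. Npm1 was the exception. Against the mean of the other 3 Jak2V617F arrays, array 3 differed by a median of -0.22 over the 36 genes, from -0.75 for Rrp12 to 0.13 for Npm1. Jak2V617F array 1 lay above its group mean for 34 genes and array 4 for 32, beside 50.2% and 50.9% of all genes. In wild type mice, array 2 lay above its group mean for 34 of 36 genes, beside 51.2% of all genes, and array 4 below it for 31, beside 45.3% of all genes. These arrays were singled out after their values were seen, the counts are a description, and genes of 1 array are not independent.

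The mean level of the 36 genes, each set to 0 at its mean over all arrays, was 0.16, 0.02, -0.15 and 0.11 in Jak2V617F arrays 1 to 4, against -0.03, 0.06, -0.07 and -0.11 in wild type arrays 1 to 4. Its SD was 0.14 in Jak2V617F and 0.07 in wild type arrays (n = 4 each). The distance between the highest and the lowest Jak2V617F mouse thus exceeded the difference of 0.07 between the genotypes' means. By role, small subunit processing spanned the widest range of arrays, from 0.20 in Jak2V617F array 1 to -0.23 in Jak2V617F array 3. The nucleolar proteins spanned the narrowest, from 0.09 in Jak2V617F array 1 to -0.07 in wild type array 4.

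**Figure D3:**
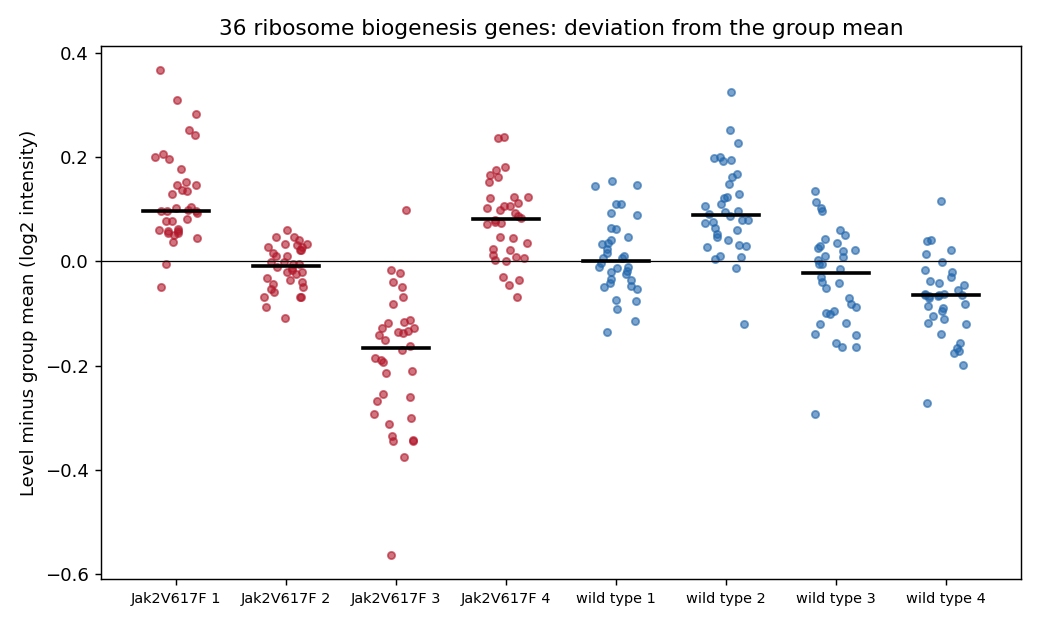
Deviation of each of the 36 genes from the mean of its own group, in log2 intensity, for each array, with Jak2V617F arrays on the left. Points are genes and black lines are medians over genes. In Jak2V617F array 3, 35 of 36 points lie below 0, and in wild type array 2, 34 of 36 lie above it.

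Jak2V617F array 3 was singled out for its low values, so leaving it out had to raise the Jak2V617F mean of every gene but Npm1, and the values without it are a description. The count of genes called was 0 with and without it. The median change became 0.14, 12 of 36 genes were higher at an unadjusted limma p under 0.05, beside 11.1% of all genes, and 0 passed the adjusted test, with 0.19 the lowest limma adjusted p. These 12 were Nip7 (0.30), Bop1 (0.28), Rrp9 (0.28), Nop14 (0.26), Mybbp1a (0.24), Nop2 (0.24), Utp20 (0.24), Ddx18 (0.24), Pes1 (0.24), Nop58 (0.23), Noc2l (0.23) and Utp18 (0.22). The other 3 Jak2V617F arrays lay above all wild type arrays for 13 of the 36 genes, beside 10.7% of all genes, and below them for 0, beside 5.88%. Leaving out wild type array 2 gave a median of 0.10, with 3 genes higher at that unadjusted p, beside 10.6% of all genes. Leaving out Jak2V617F array 1 gave a median of 0.02, with 0 genes higher, beside 10.9% of all genes. Each of these arrays lay above its group mean for 34 of 36 genes. For such genes, leaving out wild type array 2 had to raise the change, and leaving out Jak2V617F array 1 had to lower it.

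Array 3 was also the single Jak2V617F array with Xist, so its sex and the array cannot be told apart. Wild type arrays 1 and 2, which expressed Xist as well, had mean levels of -0.03 and 0.06 for the 36 genes. Among arrays with Y-linked expression alone, 3 Jak2V617F and 2 wild type, the median change was 0.21, 13 genes were higher at an unadjusted limma p under 0.05, beside 11.4% of all genes, and 0 were called. That subset dropped Jak2V617F array 3, the lowest of its group, and the wild type arrays of higher mean level. Wild type arrays 3 and 4, which were kept, stood at -0.07 and -0.11. The mean change over the 36 genes therefore had to rise, and the values of the subset are a description. With Xist and Y-linked expression as a covariate the median was 0.06.

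Other lists did not share one order of arrays with these genes. Mitosis genes, 12 measured of 13, had a mean level of 0.16, -0.23, 0.28 and 0.09 in Jak2V617F arrays 1 to 4, against -0.17, -0.08, -0.10 and 0.06 in wild type arrays, so they were highest where the ribosome biogenesis genes were lowest. Macrophage and dendritic cell markers, 11 of 11, stood at -0.05, 0.44, 0.65 and 0.15 in Jak2V617F arrays, against -0.10, -0.25, -0.18 and -0.65 in wild type arrays. Granulocyte markers, 8 of 8, stood at 0.38, 0.48, -0.24 and 0.61 in Jak2V617F arrays, against -0.91, 0.03, 0.06 and -0.41 in wild type arrays. Immediate early genes that respond to cell handling, 8 of 8, stood at 0.49, 1.13, -0.54 and 0.39 in Jak2V617F arrays, against 0.36, -1.30, -0.53 and 0.00 in wild type arrays. Erythroid markers, 8 of 9, ran from -0.13 to 1.20 in Jak2V617F arrays and from -0.96 to 0.02 in wild type arrays. In Jak2V617F array 3 the macrophage and mitosis lists thus had the highest means of their group, and the granulocyte and handling lists the lowest. Of the Jak2V617F arrays, array 3 was lowest for 6 granulocyte genes and highest for Mpo (14.70) and Elane (13.17). The part of these lists in the low ribosome biogenesis level was not tested.

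**Figure D4:**
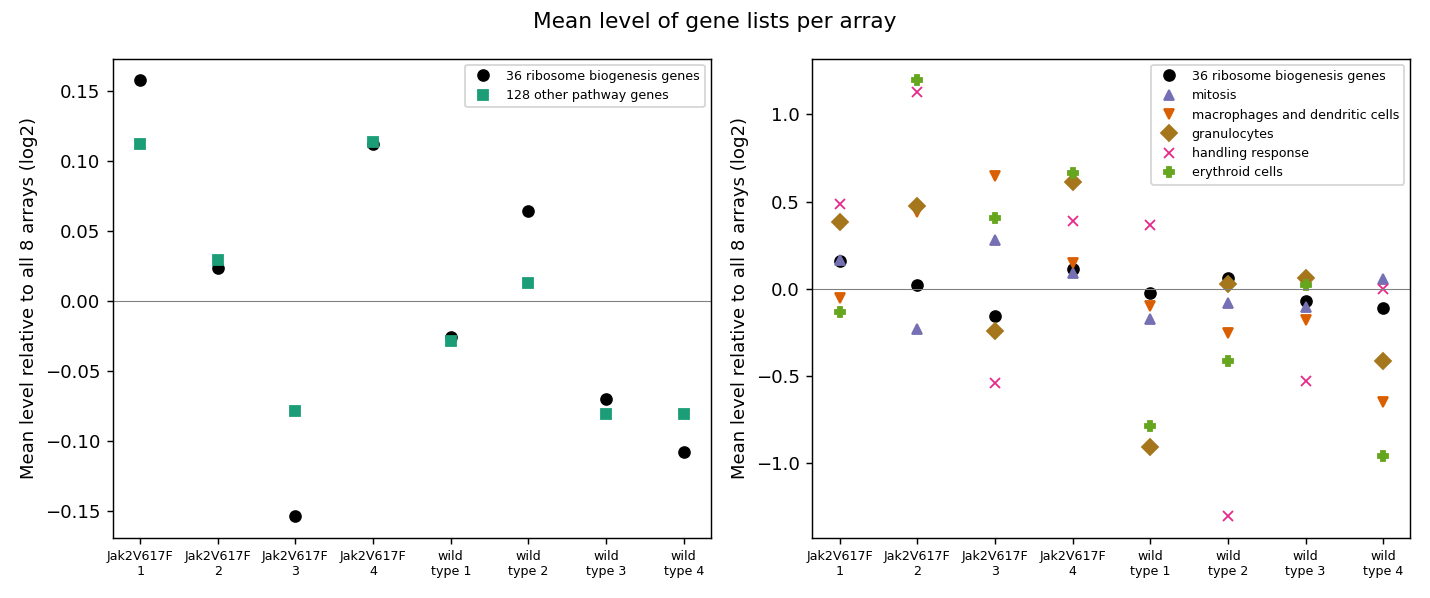
Mean log2 level of gene lists in each array relative to all 8 arrays, with Jak2V617F arrays left of wild type arrays. The left panel sets the 36 ribosome biogenesis genes beside 128 other genes of the pathway, and the right panel sets them beside marker lists on a wider scale. Both pathway sets are lowest of their group in Jak2V617F array 3, at -0.15 and -0.08, where mitosis genes are at 0.28.

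A further 128 measured genes of the pathway, of 133 listed by function, were also lowest of the Jak2V617F arrays in array 3. Jak2V617F array 3 lay below its group mean for 108 of the 128, and their mean level was 0.11, 0.03, -0.08 and 0.11 in Jak2V617F arrays, against -0.03, 0.01, -0.08 and -0.08 in wild type arrays. By genotype, 0 of them were called, the median change was 0.09, and 18 were higher and 2 lower at an unadjusted limma p under 0.05, beside 11.9% and 5.23% of all genes. Other RNA polymerase I genes had a median of 0.04, and Taf1b, part of the selectivity factor that brings the polymerase to its promoter, had the smallest p of the 128. Taf1b read 10.87, 10.65, 10.76 and 10.76 in Jak2V617F arrays, against 10.32, 10.49, 10.41 and 10.36 in wild type arrays. All its Jak2V617F values lay above all wild type values, by a change of 0.37 ± 0.0738 (SE; limma adjusted p = 0.0921). Cd3eap and Polr1e, polymerase subunits, differed by 0.20 and 0.17, and Ubtf, which opens the ribosomal RNA genes for transcription, by -0.15.

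The other small subunit genes, 42 measured, had a median change of 0.12, as had the exosome genes, with 34 above 0, beside 62.6% of all genes. Among them Nol10 differed by 0.45, Utp14a by 0.29, the helicase gene Ddx52 by 0.28 and Rrp7a by 0.23. Other large subunit genes, 44 measured, had a median of 0.08, with the helicase genes Ddx51 and Ddx24 at 0.27 and 0.24, Brix1 at 0.20 and Noc3l at -0.34. Exosome genes, whose products trim ribosomal RNA from its 3' end, had 10 of 11 above 0, with Exosc10 at 0.26, Exosc3 at 0.19, Exosc5 at 0.18 and Exosc8 at 0.17. Other genes of the modification particles had a median of 0.09, with Znhit3 at 0.21, Ruvbl2 at 0.18, Shq1 at 0.16 and Naf1 at -0.07. Polyamine and nucleotide genes had a median of 0.07, with Dhodh at 0.23, Gart at 0.16, Nme1 at 0.11 and Paics at 0.09. None of these genes passed the adjusted test.

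Further probe sets shared the low values of Jak2V617F array 3 more often than the sign of the change between genotypes. For 26 of the 36 genes there were 43 further probe sets, and 34 of these had a mean level of at least 7.94, the median over named probe sets. Jak2V617F array 3 lay below its group mean in 31 of the 34. The sign of the change between genotypes was that of the chosen probe set in 10 of the 34 and the opposite in 24, and 0 were called (limma).

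Since the genes moved together, their promoters were searched for the E-box CACGTG, the site that Myc binds with its partner Max. The motif reads the same on both strands. Myc transcript read 13.05, 13.24, 13.20 and 13.23 in Jak2V617F arrays 1 to 4, against 13.59, 13.15, 13.21 and 13.20 in wild type arrays. Among Jak2V617F arrays Myc was lowest in array 1, where the 36 genes stood highest, and a link to Myc was not tested. RefSeq windows of assembly GRCm38.p6, from 250 bases before to 50 after each start, were found for 29 of the 36 genes. Some genes had several windows, and a gene was counted if any of its windows held the motif. The motif was held by 6 of the 29 genes (20.7%). Among genes with a window, the share was 17.6% for the other pathway genes, 10.3% for all genes tested and 8.09% for all genes listed with windows. The stretches below show the motif in capitals in each of the 6 genes. They are 100 bases upstream of the start where the motif lies there, and otherwise a short stretch around it. Nip7, the gene with the highest change and no motif in its window, is given for comparison.
Nop2, chr6:125131783-125131882, plus strand: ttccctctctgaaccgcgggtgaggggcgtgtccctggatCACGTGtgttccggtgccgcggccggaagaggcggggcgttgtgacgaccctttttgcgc
Utp18, chr11:93885767-93885866, minus strand: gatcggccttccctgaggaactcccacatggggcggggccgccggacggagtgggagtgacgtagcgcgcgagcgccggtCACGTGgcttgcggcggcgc
Pes1, chr11:3963965-3963994, plus strand: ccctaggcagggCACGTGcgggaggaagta
Utp20, chr10:88826765-88826789, minus strand: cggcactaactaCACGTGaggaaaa
Wdr43, chr17:71616220-71616249, plus strand: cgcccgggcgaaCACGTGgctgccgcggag
Mybbp1a, chr11:72441355-72441376, plus strand: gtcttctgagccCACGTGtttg
Nip7, chr8:107056777-107056876, plus strand: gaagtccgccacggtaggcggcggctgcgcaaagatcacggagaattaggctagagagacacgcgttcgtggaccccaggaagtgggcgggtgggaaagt
The motif starts 60 bases before the start of Nop2 and 20 before that of Utp18, and within the first 41 transcribed bases of the others. The 6 genes with the motif had a median change between genotypes of 0.14, from -0.04 for Wdr43 to 0.20 for Pes1. The 23 without it in their windows had 0.05, from -0.11 for Nolc1 to 0.23 for Nip7. Sequence outside the windows was not searched, so these 23 may hold the motif elsewhere. Jak2V617F array 3 differed from the other Jak2V617F arrays by a median of -0.32 over the genes with the motif and -0.20 over those without it, with ranges of -0.45 to -0.15 and -0.46 to -0.02 that overlap. A match is a description of the letters and does not show binding.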

How the data were processed

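LSK cells were lysed after sorting, and their RNA was purified, amplified with a linear protocol and biotin-labelled, per the labels' protocols. The authors deposited log2 intensity values per Affymetrix probe set, a scale judged from their range. The submitters' processing notes name RMA, affy and R 2.11.0. RMA gives all arrays one distribution of signal, which hides a change common to most transcripts.

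Of 45101 probe sets, 34945 had 1 gene symbol in the platform annotation and were used. For each of 18193 genes the probe set of highest average level in the 8 arrays was taken. Genotypes were compared with limma 3.58.1 in R 4.3.3, without covariates, and two-sided p-values were adjusted over all genes by Benjamini-Hochberg. The labels describe separate mice. Same-numbered arrays of the genotypes were not paired: their deviations correlated at -0.22 to 0.10. In data simulated for this comparison over 18193 genes, the test called 43.2% of genes given a log2 change of 0.5. Noise was drawn independently for each gene, so shifts shared by the genes of an array were not simulated. Changes as small as those of the ribosome biogenesis genes, at most 0.23, were not simulated either. All 37 genes of the set were to be named, with up to 4 genes of the smallest p in each further list, and alternatives were the settings of the closing section. The genes and lists were chosen with earlier results of these data known. Jak2V617F array 3 and the probe sets and genes named beside these rules were singled out after their values were seen.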

Additional observations from a re-analysis of the deposited data

Results flagged for a closer look

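In groups of 4 arrays, 2 of 72 gene and group pairs held a value far from the other 3, and chance flags about 1 in 20 such groups. Nip7 was at 12.69 in wild type array 4, with the other wild type arrays at 12.81, 12.82 and 12.83. Pa2g4 was at 13.95 in wild type array 1, with the others at 14.04, 14.05 and 14.05.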

How the results depend on the processing

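Under the alternatives tried 0 of the 36 genes were called (limma), at thresholds of 0.1 and 0.01 and on all probe sets too, and the lowest adjusted p of a gene was 0.175. The median change stayed above 0, and was 0.213 among arrays with Y-linked expression. That subset lacks Jak2V617F array 3 and wild type arrays 1 and 2, whose removal had to raise the mean change. The sign held for 16 genes in each setting that gave them a value (Npm1, Gnl3 and Srm had none with shared probe sets left out), Tcof1, Nop56, Nop58, Rrp9, Nop14, Utp18, Utp20, Pes1, Nop2, Nip7, Ddx18, Npm1, Gnl3, Mybbp1a, Srm and Cad, and turned for the other 20, the cause of which was not tested. Some settings leave the change of each of these genes as it was, so no sign could turn in them. They were the array number as a block, dim genes left out and a robust prior that follows the mean level. Signs turned with each array centred on its median for Polr1b (-0.016), Polr1c (-0.001), Fbl (-0.008), Wdr75 (-0.01), Ncl (-0.011) and Odc1 (-0.002). Signs turned with probe sets averaged for Polr1a (-0.043), Fbl (-0.012), Dkc1 (-0.005), Nolc1 (0.083), Wdr43 (0.082), Wdr75 (-0.101), Bop1 (-0.055), Wdr12 (-0.012), Nop16 (-0.061), Rrp1b (0.108), Ncl (-0.033), Ddx21 (0.116), Pa2g4 (0.055), Noc2l (-0.073) and Odc1 (-0.047). Signs turned without probe sets of shared design (_s_at, _x_at and _a_at) for Fbl (-0.033), Dkc1 (-0.157), Wdr43 (0.206) and Wdr75 (-0.21). Signs turned with array weights for Pa2g4 (0.003). Signs turned with Xist and Y-linked expression as a covariate for Polr1b (-0.022) and Wdr75 (-0.007). Signs turned among arrays with Y-linked expression for Polr1c (-0.006), Gar1 (0.073), Wdr43 (0.006), Rrs1 (0.07) and Rrp1b (0.072). With each array left out in turn, signs turned within Fbl (-0.017 to 0.048), Gar1 (-0.118 to 0.014), Ncl (-0.017 to 0.035), Nop16 (-0.029 to 0.147), Odc1 (-0.044 to 0.061), Pa2g4 (-0.028 to 0.013), Polr1a (-0.011 to 0.207), Polr1b (-0.092 to 0.116), Polr1c (-0.028 to 0.042), Rrp12 (-0.079 to 0.230), Rrp1b (-0.050 to 0.029), Rrs1 (-0.116 to 0.059) and Wdr75 (-0.033 to 0.071). The count of all genes called, 30, was 8 with the replicate number as a block, 19 with dim genes left out, 75 with a robust prior that follows the mean level, 49 with probe sets averaged, 60 with Xist and Y-linked expression as a covariate, 110 on all probe sets, 199 at 0.1 and 8 at 0.01, and 13 to 40 with each array left out. It was 19, 16 and 14 without Jak2V617F arrays 1, 2 and 4, and 13 and 16 without wild type arrays 2 and 3. Centring lowered the median over all genes from 0.05 to 0.04. With the array number as a block 0 ribosome biogenesis genes were called. Each array number is held by an array of each genotype, so the block alters p-values but not changes. The median of 0.068 was therefore the same by construction.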
